A study of Mus musculus with 15 samples.

Results

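Tmem135 and 9 genes of mitochondrial fission and fusion were followed in posterior eyecups of mice that carry the FUN025 mutation of Tmem135. The 10 genes were taken by name: Tmem135, Dnm1l, Fis1, Mff, Mief1, Mief2, Mfn1, Mfn2, Opa1 and Oma1. All 10 are listed among the 55421 genes counted in each library, and all 10 were among the 18979 genes that could be tested after low counts and low variance were removed. The posterior eyecup is the back of the eye with the retinal pigment epithelium (RPE), choroid and sclera, here without the neural retina, and the eyecups of an individual mouse were pooled into 1 library. The mice were 4 WT, 6 heterozygous (FUN025/+) and 5 homozygous (FUN025/FUN025) animals aged 2.5 months and of both sexes, on the C57BL/6J background, with WT C57BL/6J mice as controls. FUN025 is a mutation of the germ line, so every cell of a mutant mouse carries it, and reads counted on the whole gene do not separate the mutant from the WT transcript. The sex of single mice is not labelled.

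Mitochondria divide and join continually. DRP1, the product of Dnm1l, is a dynamin-like GTPase that is recruited to the outer membrane by the adaptors encoded by Mff, Mief1, Mief2 and Fis1, and it constricts the organelle. The mitofusins MFN1 and MFN2 join outer membranes, OPA1 joins inner membranes and shapes cristae, and the protease OMA1 cuts OPA1 under stress. TMEM135 is a membrane protein of mitochondria and peroxisomes that has been linked to mitochondrial dynamics, and the balance of division and joining is known to matter for the RPE, a tissue with a high demand for energy.

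The genes lie on 8 chromosomes of GRCm38. Tmem135 spans positions 89139714 to 89404222 of the minus strand of chromosome 7, with 7572 bases of exon. Mief2 spans 60728398 to 60732951 of the plus strand of chromosome 11, with 2716 bases of exon. Opa1 spans 29579334 to 29654884 of the plus strand of chromosome 16, with 7875 bases of exon. These are the 3 members called below in the edgeR fit to all 15 mice, and the 150 bases before the start of each are shown first. Sequences and start sites are from RefSeq on GRCm38.p6, where all 10 members matched, with 15 start sites between them. They are written 5′ to 3′ on the strand of the gene, and capitals mark a motif found by search.
Tmem135, chr7:89404223-89404372, minus strand: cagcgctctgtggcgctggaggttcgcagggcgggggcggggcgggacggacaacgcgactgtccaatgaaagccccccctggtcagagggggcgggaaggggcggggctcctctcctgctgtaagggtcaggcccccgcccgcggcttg
Mief2, chr11:60728248-60728397, plus strand: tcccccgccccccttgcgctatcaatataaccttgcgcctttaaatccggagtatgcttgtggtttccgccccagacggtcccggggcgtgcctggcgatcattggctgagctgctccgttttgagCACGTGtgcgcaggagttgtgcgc
Opa1, chr16:29579184-29579333, plus strand: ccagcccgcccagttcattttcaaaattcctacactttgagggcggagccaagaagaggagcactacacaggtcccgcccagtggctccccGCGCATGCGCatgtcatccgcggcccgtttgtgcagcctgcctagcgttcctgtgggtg
The capitals in Mief2 are an E-box (CACGTG), 24 bases before the start. Those in Opa1 are the NRF1 motif (GCGCATGCG), which begins 59 bases before the start on the plus strand and overlaps its own copy on the minus strand, since the letters are nearly a palindrome.

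The 7 motifs searched on both strands of the 300 bases around each start were GCGCATGCG (NRF1), CCGGAAGT (GABPA), TGACGTCA (the cyclic AMP element), CACGTG (the E-box), TCAAGGTCA (the ERR element), TCACNCCAC (the sterol element) and AAGATGGC (YY1). NRF1 and GABPA are factors known to bind many nuclear genes of mitochondria. Of 32851 promoters of the same length, 1.75% held the NRF1 letters, 3.89% the GABPA letters, 1.79% the cyclic AMP element, 7.15% the E-box, 0.423% the ERR element, 1.24% the sterol element and 2.75% the YY1 letters. Among the 10 members, GABPA letters were found in 3, NRF1 letters in 1 and the E-box in 1, and the other motifs in 0. The members are counted per gene over 15 start sites, whereas the shares above are per promoter. Base composition was not matched either, so the counts and shares are not a measure of enrichment. The GABPA matches are shown because 1 motif recurs in 2 adaptor genes and 1 mitofusin gene, none of which passed a test of change below. Each is given with its surroundings, 30 bases in all, on the plus strand, with the motif in capitals.
Fis1, the first start, chr5:136953246-136953275: ggaggcaccacCCGGAAGTtcaggcttccc
Fis1, the second start, chr5:136962085-136962114: acaggtcgatgCCGGAAGTgcctctccgcc
Mief1, before the start, chr15:80234004-80234033: ggaggggccgaCCGGAAGTgcttccgcctc
Mief1, after the start, chr15:80234080-80234109: gaggtcgtgccCCGGAAGTagaggggccat
Mfn1, chr3:32529427-32529456: gatccgaagcgCCGGAAGTagccgccccta
None of the 7 motifs was found at Tmem135, Dnm1l, Mff, Mfn2 or Oma1, which says only that these letters are not in these windows. The 250 bases before the Tmem135 start were 72.4% G and C with 28 CpG pairs, against medians of 52.4% and 6 over all promoters. This was not particular to Tmem135: Mief1 had 69.6% and 27 pairs, and the first start of Dnm1l 70.8% and 26. Over all start sites of the members the lowest values were 46% (Mff, first start) and 5 pairs (Fis1, second start).

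Total counts were 18094977 to 20029919 in the WT libraries, 10903183 to 13456349 in the FUN025/+ libraries and 11053535 to 15038383 in the FUN025/FUN025 libraries. Every WT library was deeper than every mutant library, and no sequencing batch is labelled. A batch of WT mice, or whatever made their libraries deeper, therefore cannot be told apart from genotype. With all libraries thinned to the smallest total, the calls of Tmem135 and Mief2 against WT given below remained. That of Opa1 ended (0.16, adjusted p = 0.103, edgeR). The members held 167 (Oma1 in a FUN025/+ library) to 3332 counts (Mfn2 in a WT library), well above the 3 counts taken as the smallest a library can show. The 10 RPE markers were present in every library, with summed levels of 17816 to 21764, 17742 to 23328 and 17410.2 to 22129.6 CPM (reads of a gene scaled to the size of its library) in WT, FUN025/+ and FUN025/FUN025 libraries, and 0 of the 10 differed from WT in either genotype by edgeR (adjusted p of 0.169 or more in FUN025/FUN025 eyecups). Markers of other tissues were present too. The 12 striated muscle markers summed to 5807 to 10906 CPM in WT, 3117 to 8025 CPM in FUN025/+ and 4757 to 5805 CPM in FUN025/FUN025 libraries. All 12 lay below WT in both genotypes, with medians of -0.64 and -0.61 on the log2 scale, and 3 passed the test in each. The 11 rod markers summed to 356 to 2539, 187 to 787 and 185 to 515 CPM and all lay below WT, with medians of -1.80 and -1.89, of which 0 and 1 passed. Of 8 endothelial markers, 3 and 6 passed as lower in FUN025/+ and FUN025/FUN025 eyecups. Of 8 macrophage markers, 0 and 1 passed, the latter as higher, and of 7 fibroblast markers 0 passed in either genotype. None of these markers was at 0. In such whole tissue, fewer cells of a type and less RNA per cell cannot be told apart.

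Levels of different genes were compared per length, as CPM divided by the exon length in kilobases (RPKM), in WT eyecups. Fis1, the small tail-anchored adaptor, had the highest level at 51.7 ± 5.09 RPKM (SD, n = 4), which placed it above 95.3% of the genes tested. Mfn2 followed at 32.2 ± 0.824, then Dnm1l at 23.4 ± 1.03 and Mfn1 at 15.3 ± 0.241 RPKM. Each of these levels was separated from its neighbours in every WT mouse.

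A group of 5 genes with levels close to each other followed. Mff was at 10.2 ± 0.132, Opa1 at 10.2 ± 0.693, Mief2 at 8.97 ± 0.733, Tmem135 at 8.45 ± 0.395 and Oma1 at 7.99 ± 0.570 RPKM (SD, n = 4). Every neighbouring pair in this run overlapped between mice, so the order of neighbours is not fixed by these data. Genes farther apart did separate: Mff (10.1 to 10.4 RPKM) and Opa1 (9.23 to 10.7 RPKM) lay above Tmem135 (7.89 to 8.74 RPKM) and Oma1 (7.30 to 8.46 RPKM) in every WT mouse. Mief1 was lowest at 3.39 ± 0.120 RPKM, separate from Oma1. Tmem135 had rank 8 of the 10 in WT eyecups, rank 6 in FUN025/+ eyecups and rank 5 in FUN025/FUN025 eyecups, where it averaged 11.7 ± 0.603 RPKM (SD, n = 5), while the 4 highest genes and the lowest held the same places in all genotypes.

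**Figure D1:**
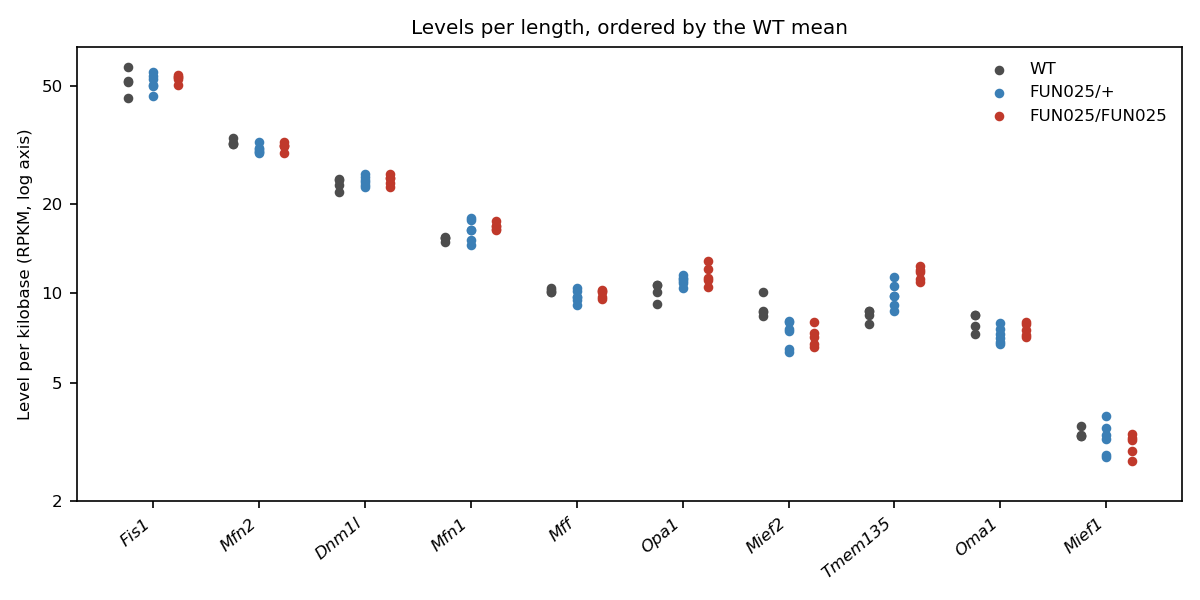
Level per length (RPKM, log axis) of each gene in every library, ordered from left to right by the WT mean, with 1 point per mouse and 1 colour per genotype. Fis1 lies at 45.4 to 57.9 RPKM in WT mice and Mief1 at 3.32 to 3.57 RPKM, and Tmem135 is the gene whose FUN025/FUN025 points (10.9 to 12.4 RPKM) stand clear of its WT points (7.89 to 8.74 RPKM) by the widest gap.

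The next question was whether a mutant Tmem135 allele goes along with a change in the RNA of Tmem135 itself. It did, in both genotypes and upwards. The 4 WT mice had 66.0, 63.8, 66.2 and 59.8 CPM of Tmem135 (mean 64.0 ± 2.99). The 6 FUN025/+ mice ranged from 66.1 to 86.3 CPM with a median of 74.3 (mean 75.0 ± 7.30). The 5 FUN025/FUN025 mice had 85.1, 89.3, 94.0, 82.5 and 90.8 CPM (mean 88.3 ± 4.57). All FUN025/FUN025 mice were above all WT mice, whereas the lowest FUN025/+ mouse fell just below the highest WT mouse and the highest FUN025/+ mouse lay among the homozygotes.

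The rise of Tmem135 was 0.23 on the log2 scale (SE 0.0647, 1.17-fold, adjusted p = 0.0248) in FUN025/+ against WT eyecups and 0.47 (SE 0.0672, 1.38-fold, adjusted p = 1.48e-04) in FUN025/FUN025 against WT eyecups by edgeR's quasi-likelihood test. Both comparisons use the same 4 WT mice. Between FUN025/FUN025 and FUN025/+ eyecups, which share no mice, the difference was 0.24 (95% interval 0.11 to 0.36), with an unadjusted p of 0.00104 and an adjusted p of 0.126 in edgeR, so it missed the threshold of 0.05. It passed with DESeq2 (adjusted p = 0.0413), without any filter on genes (adjusted p = 0.0475) and without FUN025/+ replicate 5 (0.28, adjusted p = 0.0296). That mouse had the highest level of the FUN025/+ mice (86.3 CPM), so leaving it out widens the difference. Only 1 of the 15 fits that left out a mouse passed, and the adjusted p reached 0.353 (edgeR). The 3 comparisons called 13.7%, 14.0% and 0.522% of all genes tested, and in FUN025/FUN025 against WT, 7.03% of genes were called higher.

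A straight line through 0, 1 and 2 mutant alleles gave 0.23 per allele for Tmem135 (SE 0.0331, adjusted p = 3.88e-04, edgeR), in a test that called 8.90% of genes. The FUN025/+ mice were at the midpoint of the other genotypes to within -0.11 to 0.11 on the log2 scale (difference -0.00, adjusted p = 0.985), where 1.95% of genes were called. The rise in FUN025/FUN025 eyecups and the slope passed in every setting tried and with each mouse left out. The rise in FUN025/+ eyecups did not pass with an offset for GC content (0.17, adjusted p = 0.0743), with the striated muscle markers as a covariate (0.27, adjusted p = 0.0654), with the rod markers as a covariate (0.22, adjusted p = 0.0734), without WT replicate 2 (0.23, adjusted p = 0.0505) or without WT replicate 4 (0.21, adjusted p = 0.0857).

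**Figure D2:**
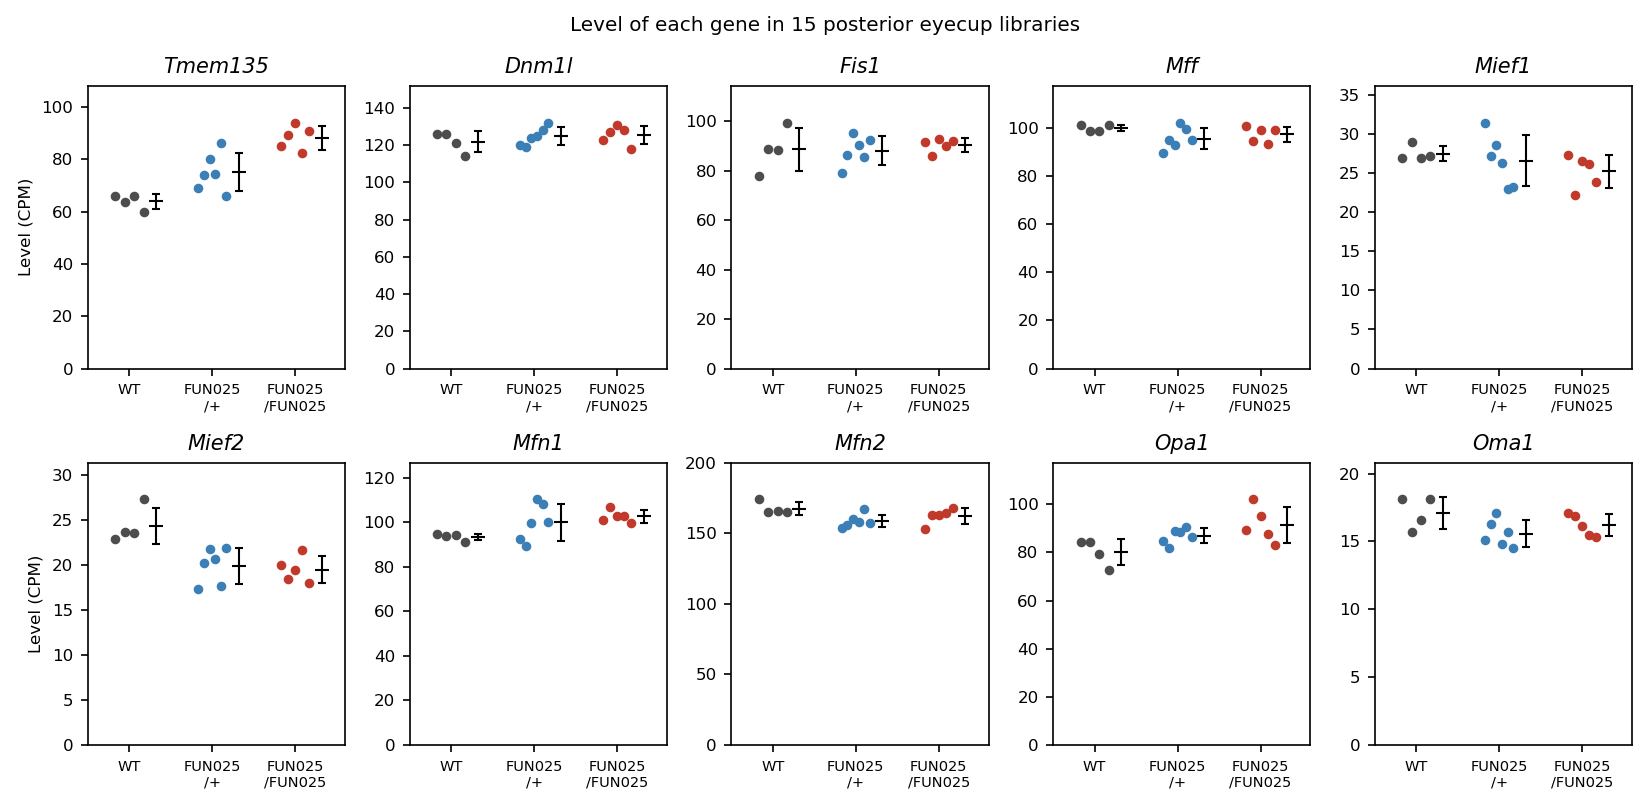
Level (CPM, axes from 0) of each of the 10 genes in every library, with 1 point per mouse and the mean ± SD beside each genotype (4 WT, 6 FUN025/+ and 5 FUN025/FUN025 mice). Tmem135 rises from 59.8 to 66.2 CPM in WT mice to 82.5 to 94.0 CPM in FUN025/FUN025 mice, Mief2 lies lower in every mutant mouse than in every WT mouse, and the genotypes of Dnm1l, Fis1, Mff, Mief1, Mfn2 and Oma1 overlap.

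The fission machinery was examined next, to see whether the GTPase or its adaptors changed with genotype. Of its 5 genes, Mief2 was lower in both mutant genotypes and the others were not called in the edgeR fit to all 15 mice. Mief2 encodes MiD49, an outer membrane adaptor that binds DRP1. Its levels in the WT mice were 22.9, 23.7, 23.6 and 27.3 CPM (mean 24.4 ± 1.99). The FUN025/+ mice ranged from 17.3 to 21.9 CPM with a median of 20.5 (mean 19.9 ± 2.01), and the FUN025/FUN025 mice had 20.03, 18.40, 19.36, 21.70 and 17.97 CPM (mean 19.5 ± 1.48). Every mutant mouse, with 1 or 2 mutant alleles, was below every WT mouse.

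On the log2 scale, Mief2 fell by 0.29 in FUN025/+ (SE 0.0817, 0.818-fold, adjusted p = 0.0251) and by 0.32 in FUN025/FUN025 eyecups (SE 0.0852, 0.800-fold, adjusted p = 0.0179), by edgeR against the same WT mice. Of all genes, 6.61% and 7.02% were called lower in these comparisons. The mutant genotypes differed from each other by -0.03 (95% interval -0.20 to 0.13, adjusted p = 1.00), and the FUN025/+ mice lay -0.13 from the midpoint (95% interval -0.27 to 0.02, adjusted p = 0.366). The slope was -0.16 per allele (adjusted p = 0.0377).

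The calls of Mief2 against WT ended with the GC offset (-0.18, adjusted p = 0.138, and -0.22, adjusted p = 0.0832) and with the striated muscle markers as a covariate (-0.22, adjusted p = 0.255, and -0.27, adjusted p = 0.128, for FUN025/+ and FUN025/FUN025 eyecups). They also ended without WT replicate 4, the mouse with the highest level (-0.22, adjusted p = 0.123, and -0.26, adjusted p = 0.0835), and in FUN025/+ eyecups without FUN025/+ replicate 5 (-0.26, adjusted p = 0.0518). The slope passed in 8 of 15 fits that left out a mouse; it was lost without any of the 4 WT mice and without FUN025/FUN025 replicate 2, 3 or 5 (adjusted p up to 0.144). It was also lost in 5 of 12 other settings: the replicate block (-0.14, adjusted p = 0.0888), the GC offset (-0.11, adjusted p = 0.109), the striated muscle covariate (-0.11, adjusted p = 0.238), the rod covariate (-0.17, adjusted p = 0.0786) and protein-coding genes alone (-0.15, adjusted p = 0.0507). The exons of Mief2 are 58.9% G and C, the most of the 10 genes, against 45.7% in Tmem135 and 45.1% in Opa1, and the striated muscle markers fell alongside it as given above.

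Mief1 encodes MiD51, the paralogue of MiD49. Its levels overlapped between genotypes, at 27.5 ± 0.973 CPM in the 4 WT, 26.6 ± 3.26 CPM in the 6 FUN025/+ and 25.2 ± 2.08 CPM in the 5 FUN025/FUN025 mice (mean ± SD). The differences from WT were -0.05 (95% interval -0.22 to 0.13, adjusted p = 0.754) and -0.12 (95% interval -0.31 to 0.06, adjusted p = 0.364) by edgeR. A stretch of 2.63% of the Mief1 exons is shared with another gene of the same strand, which had 0 counts in every library.

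Dnm1l, the GTPase itself, was at 122 ± 5.38, 125 ± 4.93 and 125 ± 4.96 CPM in WT, FUN025/+ and FUN025/FUN025 eyecups. Its changes were 0.03 (95% interval -0.06 to 0.13, adjusted p = 0.654) and 0.04 (95% interval -0.05 to 0.14, adjusted p = 0.565), and they turned to -0.06 and -0.05 with the GC offset. Counts of Dnm1l carry some doubt: 9.51% of its 31-base stretches occur in other annotated genes, most of them in Gm13719, and an antisense gene, Gm49521, overlaps 4.67% of its exons. The sources used here do not give the strand setting of the counting, so reads of a gene and its antisense partner cannot be separated.

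Mff, the main receptor of DRP1, was at 99.8 ± 1.28 CPM in WT, 95.4 ± 4.41 CPM in FUN025/+ and 97.3 ± 3.17 CPM in FUN025/FUN025 eyecups. Its changes were -0.07 (95% interval -0.15 to 0.02, adjusted p = 0.324) and -0.04 (95% interval -0.13 to 0.06, adjusted p = 0.622). The first passed with the GC offset, at -0.14 (adjusted p = 0.0341). A gene of the opposite strand, C430014B12Rik, with up to 641 counts in a library, shares 195 bases with the Mff exons.

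Fis1, in mammals an adaptor also tied to mitophagy, was at 88.5 ± 8.72, 88.1 ± 5.75 and 90.4 ± 2.76 CPM in WT, FUN025/+ and FUN025/FUN025 eyecups. The WT mice alone ran from 77.9 to 99.3 CPM, which held all the mutant mice. Its changes were -0.01 (95% interval -0.14 to 0.12) and 0.03 (95% interval -0.10 to 0.16), and their signs turned with several settings.

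The fusion machinery was compared in the same fits. Opa1 was higher in FUN025/FUN025 eyecups, Mfn1 was higher in every FUN025/FUN025 mouse than in any WT mouse without passing the test, and Mfn2 and Oma1 passed no test. Opa1 encodes the inner membrane fusion GTPase. The WT mice had 84.2, 84.2, 79.5 and 72.7 CPM of Opa1 (mean 80.2 ± 5.46), the FUN025/+ mice 81.9 to 90.5 CPM with a median of 87.4 (mean 86.8 ± 3.14), and the FUN025/FUN025 mice 89.3, 102, 95.0, 87.7 and 82.9 CPM (mean 91.3 ± 7.17). The genotypes overlapped: the lowest homozygote lay under the highest WT mice, and the lowest WT mouse lay under all other mice.

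Against WT, Opa1 rose by 0.19 in FUN025/FUN025 eyecups (SE 0.0592, 1.14-fold, adjusted p = 0.0414, edgeR) and differed by 0.12 in FUN025/+ eyecups (95% interval -0.00 to 0.24, adjusted p = 0.190). The slope was 0.09 per allele (adjusted p = 0.0550). It passed in 4 of 12 other settings, with DESeq2 (adjusted p = 0.0264), the rod covariate (adjusted p = 0.0446), Xist as a covariate (adjusted p = 0.0489) and protein-coding genes alone (adjusted p = 0.0473). It also passed without FUN025/+ replicate 3 (adjusted p = 0.0492), FUN025/FUN025 replicate 4 (adjusted p = 0.0464) or FUN025/FUN025 replicate 5 (adjusted p = 0.0334). The call in FUN025/FUN025 eyecups was close to the threshold and ended in 6 of 13 other settings, with adjusted p from 0.0506 without filters to 0.138 with the striated muscle markers as a covariate. Among these were libraries thinned to the smallest total (0.16, adjusted p = 0.103) and the GC offset (0.13, adjusted p = 0.126). It also ended without WT replicate 3 (0.19, adjusted p = 0.0690), WT replicate 4 (0.15, adjusted p = 0.130), or FUN025/FUN025 replicate 1 (0.21, adjusted p = 0.0505), 2 (0.15, adjusted p = 0.109) or 3 (0.17, adjusted p = 0.0842). In all of these the change stayed above 0.

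Mfn1, the mitofusin that tethers outer membranes, had 94.6, 93.9, 94.1 and 91.3 CPM in the WT mice (mean 93.5 ± 1.48). The FUN025/+ mice ranged from 89.4 to 110.3 CPM with a median of 99.9, and the FUN025/FUN025 mice had 101, 107, 103, 103 and 99.5 CPM (mean 103 ± 2.86). The heterozygotes spread on both sides of the WT mice, while all homozygotes were above them. The change in FUN025/FUN025 eyecups was 0.14 (95% interval 0.02 to 0.25), with an unadjusted p of 0.0243 and an adjusted p of 0.111 by edgeR, and in FUN025/+ eyecups it was 0.10 (95% interval -0.02 to 0.21, adjusted p = 0.246).

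Mfn2, which also tethers mitochondria to the endoplasmic reticulum, was at 167 ± 4.28, 159 ± 4.62 and 162 ± 5.31 CPM, with changes of -0.08 (95% interval -0.16 to 0.00, adjusted p = 0.194) and -0.04 (95% interval -0.13 to 0.04, adjusted p = 0.497). Oma1 was at 17.1 ± 1.22, 15.6 ± 0.974 and 16.2 ± 0.810 CPM, with changes of -0.14 (95% interval -0.29 to 0.02, adjusted p = 0.224) and -0.08 (95% interval -0.23 to 0.08, adjusted p = 0.533). Neither gene had a genotype that stood clear of the WT mice.

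**Figure D3:**
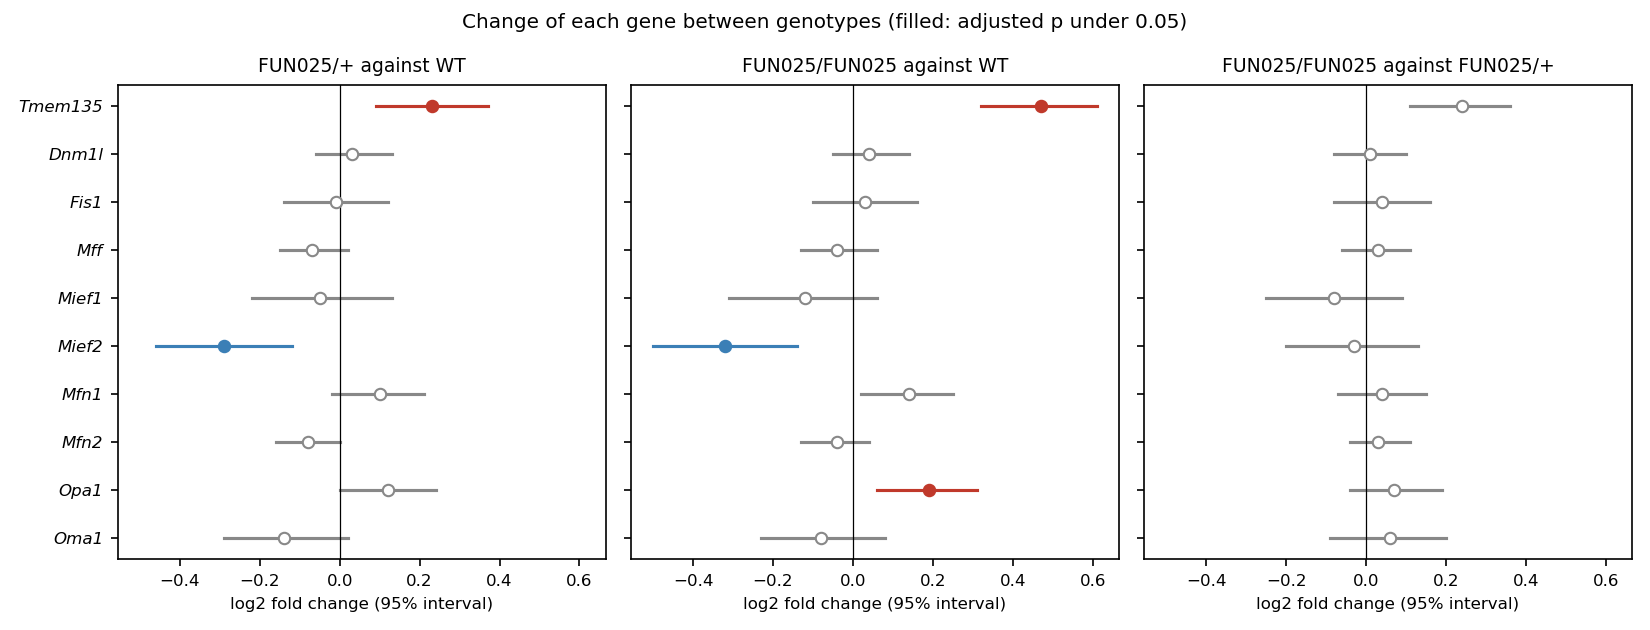
Log2 fold change of each gene with its 95% interval in 3 comparisons of genotypes, from 1 edgeR fit to all 15 mice; filled points have an adjusted p under 0.05. Tmem135 is filled at 0.23 and 0.47 against WT, Mief2 at -0.29 and -0.32, and Opa1 at 0.19 in FUN025/FUN025 eyecups alone, while no point is filled between the mutant genotypes.

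Counted over the 10 genes, 2 were called in FUN025/+ against WT (Tmem135 higher and Mief2 lower), beside 13.7% of all genes, 7.09% of them higher and 6.61% lower. In FUN025/FUN025 against WT, 3 were called (Tmem135 and Opa1 higher, Mief2 lower), beside 14.0% of all genes. With only 10 genes these counts are near the background, and no more was read from them. The members' median changes were -0.03 and -0.00, and those of all genes tested were -0.002 and -0.007. The number of members within 0.1 of WT on the log2 scale was 6 in FUN025/+ and 5 in FUN025/FUN025 eyecups.

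Genotypes whose mice did not overlap were found for 1 member in FUN025/+ against WT (Mief2), beside 10.9% of all genes, and for 3 members in FUN025/FUN025 against WT (Tmem135, Mief2 and Mfn1), beside 14.8%. Between FUN025/FUN025 and FUN025/+ eyecups 0 members were called by edgeR and 0 did not overlap, beside 0.522% and 1.12% of all genes, and 1 member, Tmem135, had an unadjusted p under 0.05. No member but Tmem135 differed there by more than 0.1.

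Within a library, the ratio of paralogues does not depend on the scaling of the library. Mfn2 exceeded Mfn1 in every mouse. The ratio of Mfn2 to Mfn1 RPKM was 2.16, 2.06, 2.08 and 2.12 in the WT mice (mean 2.11 ± 0.0436), 1.69 to 2.05 with a median of 1.86 in the FUN025/+ mice, and 1.79, 1.79, 1.87, 1.86 and 1.99 in the FUN025/FUN025 mice (mean 1.86 ± 0.0793). All mutant mice of both genotypes were below all WT mice in this ratio, while neither mitofusin passed the test alone. The ratio of Mief1 to Mief2 overlapped between genotypes, at 0.380 ± 0.0326, 0.452 ± 0.0843 and 0.434 ± 0.0273. The exons of Mfn2 are 54.2% G and C and those of Mfn1 45.6%. With the GC offset the changes against WT were -0.01 for Mfn2 and 0.04 for Mfn1 in FUN025/+ eyecups, and 0.02 and 0.08 in FUN025/FUN025 eyecups, so the genes lay closer together than without it. How often other gene pairs separate was not tested. The ratios were looked at after the levels had been seen, and they are given as a description, with no test.

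**Figure D4:**
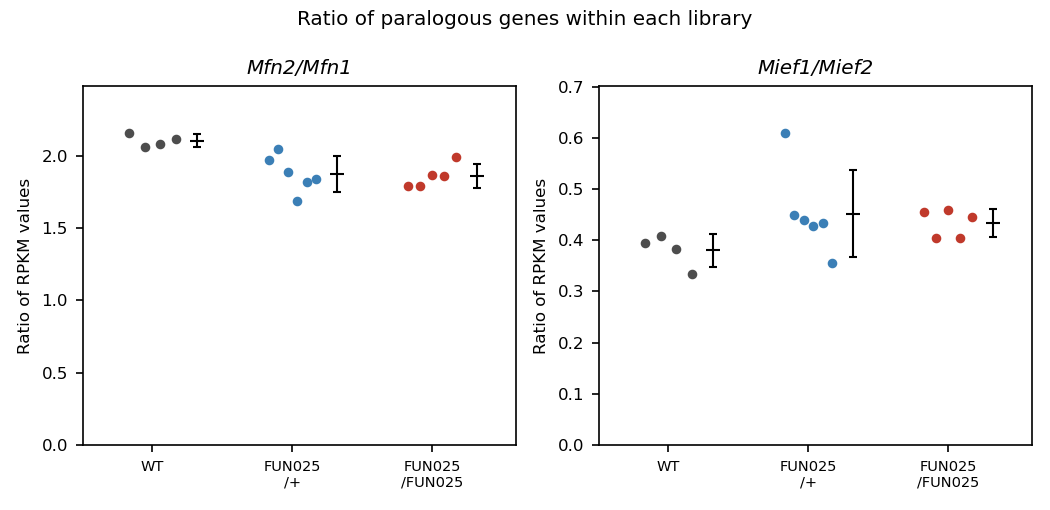
Ratio of RPKM values of paralogous genes in each library (axes from 0), with 1 point per mouse and the mean ± SD beside each genotype (4 WT, 6 FUN025/+ and 5 FUN025/FUN025 mice). Mfn2/Mfn1 runs from 2.06 to 2.16 in WT mice and from 1.69 to 2.05 in the mutant mice, and Mief1/Mief2 overlaps between genotypes.

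Across the 15 mice, log2 levels of Opa1 (r = 0.73) and Mfn1 (r = 0.65) ran with those of Tmem135 and those of Mief2 ran against them (r = -0.72). These 3 genes and Tmem135 are also those with the largest changes in FUN025/FUN025 eyecups, and around the genotype means r was 0.42, 0.38 and -0.44. Mfn2 showed the reverse order, with r = -0.04 over all mice and 0.65 around the genotype means. Among 14476 protein-coding genes, the 5 whose log2 levels were most like Tmem135 over all mice were Lman1 (r = 0.97), a cargo receptor of the early secretory pathway, Lactb2 (0.95), a mitochondrial endoribonuclease, Gpam (0.92), which starts glycerolipid synthesis at the mitochondrial outer membrane, Col8a1 (0.91), a collagen of basement membranes, and Ubr3 (0.91), a ubiquitin ligase. Around the genotype means the 5 were Eif5 (0.92), Cd164 (0.90), Bpnt1 (0.90), Kcnt2 (0.89) and Lman1 (0.89). The points share libraries and scaling, and these correlations over 15 mice are a description.

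Other genes of mitochondrial form and upkeep were taken from lists. Of 16 other fission and fusion genes tested, 1 was higher and 2 were lower in FUN025/+ eyecups, and 0 were higher and 2 were lower in FUN025/FUN025 eyecups, with a median of -0.08 in each. Mtfp1, an inner membrane protein that promotes division, fell by 0.35 and by 0.34 (adjusted p = 0.0109 and 0.0184, edgeR). Its call was lost with the muscle covariate (adjusted p = 0.0856 and 0.0744) and the rod covariate (adjusted p = 0.0510 and 0.0624). With the GC offset it passed in FUN025/+ (adjusted p = 0.0433) but not in FUN025/FUN025 eyecups (adjusted p = 0.0660). The change of Mtfp1 stayed between -0.26 and -0.34 in these fits. Opa3, a mitochondrial protein mutated in an inherited optic atrophy, fell by 0.24 in FUN025/FUN025 eyecups (adjusted p = 0.0326). This call was lost with the GC offset (-0.17, adjusted p = 0.152), the muscle covariate (-0.20, adjusted p = 0.178) and the rod covariate (-0.24, adjusted p = 0.0750). Miga1, which promotes fusion, was the gene that rose in FUN025/+ eyecups (0.29, adjusted p = 0.00769) and was at 0.21 in FUN025/FUN025 eyecups (adjusted p = 0.0503), and Usp30, a mitochondrial deubiquitinase, fell by 0.20 in FUN025/+ eyecups (adjusted p = 0.00749). Miga1 and Usp30 were named after their values were seen, as were Ndufa11, Pink1, Ppargc1a, Rhot1, Timm23, Trak1, Twnk and Yy1 below.

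Of 8 inner membrane proteases and prohibitins, 2 rose and 1 fell in each mutant genotype, with a median of -0.01 in each. Yme1l1, the protease that cuts OPA1 at a site other than that of OMA1, rose by 0.19 in FUN025/+ and 0.18 in FUN025/FUN025 eyecups (adjusted p = 0.00992 and 0.0191). With the GC offset it was at 0.07 in each and was not called (adjusted p = 0.321 and 0.393), and in FUN025/FUN025 eyecups it was also lost with the muscle and rod covariates (adjusted p = 0.0508 and 0.0562). Parl, a rhomboid protease of the inner membrane, rose by 0.19 and 0.24 (adjusted p = 0.0348 and 0.0127). Phb2, a prohibitin that forms a scaffold in the inner membrane, fell by 0.25 and by 0.20 (adjusted p = 0.00747 and 0.0354). It was not called with the muscle covariate (-0.14, adjusted p = 0.225, and -0.10, adjusted p = 0.350) or, in FUN025/FUN025 eyecups, with the GC offset (-0.13, adjusted p = 0.144). With the rod covariate it remained in both genotypes.

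Of 11 MICOS and cristae genes, 0 rose and 2 fell in each mutant genotype, with medians of -0.06 and -0.09. The core subunits Chchd3 (-0.23, adjusted p = 0.0159, and -0.30, adjusted p = 0.00375) and Immt (-0.22, adjusted p = 0.00457, and -0.16, adjusted p = 0.0301) were the genes that fell. Immt remained with the GC offset and was lost with the muscle covariate (-0.16, adjusted p = 0.107, and -0.12, adjusted p = 0.213). In FUN025/FUN025 eyecups it was also lost with the rod covariate (-0.16, adjusted p = 0.0684). Of 15 mitophagy genes, 1 fell and 0 rose in each genotype, with medians of -0.01 and 0.02. This gene was Ulk1, the kinase that starts autophagy (-0.16, adjusted p = 0.0333, and -0.17, adjusted p = 0.0277). Its call was lost in both genotypes with the GC offset (-0.06, adjusted p = 0.494, and -0.08, adjusted p = 0.401), the muscle covariate (adjusted p = 0.157 and 0.0940) and the rod covariate (adjusted p = 0.134 and 0.0981). The mitophagy kinase Pink1 was at -0.05 in FUN025/FUN025 eyecups (adjusted p = 0.627).

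Of 18 genes of mitochondrial biogenesis and DNA upkeep, 4 fell and 0 rose in each genotype, with medians of -0.08 and -0.09. Polg, the polymerase of mitochondrial DNA, fell by 0.19 and by 0.20 (adjusted p = 0.00900 and 0.00783), and Ssbp1, its single-strand binding partner, by 0.19 and by 0.29 (adjusted p = 0.0486 and 0.00579). Perm1, known from striated muscle, fell by 0.55 and by 0.57 (adjusted p = 0.0117 and 0.0123), and the striated muscle markers fell with medians of -0.64 and -0.61. The fourth was the helicase Twnk in FUN025/+ (-0.25, adjusted p = 0.0197) and the factor Yy1 in FUN025/FUN025 eyecups (-0.13, adjusted p = 0.0317). The coactivator Ppargc1a was at -0.00 in FUN025/FUN025 eyecups (adjusted p = 0.988).

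Of 6 genes of the TIM17 family, whose domain TMEM135 shares, 1 fell in FUN025/+ eyecups (Ndufa11, -0.24, adjusted p = 0.0413) and 0 passed in FUN025/FUN025 eyecups, where Ndufa11 was at -0.22 (adjusted p = 0.0682) and Timm23 at 0.22 (adjusted p = 0.0753), with medians of -0.05 and -0.01. Of 12 genes of mitochondrial transport, 1 rose and 3 fell in FUN025/+ eyecups, and 1 rose and 1 fell in FUN025/FUN025 eyecups, with medians of -0.14 and -0.08. Armcx3, an outer membrane protein that binds the transport machinery, rose by 0.25 and 0.35 (adjusted p = 0.00680 and 5.97e-04). The outer membrane GTPase Rhot2 fell by 0.22 and by 0.29 (adjusted p = 0.0456 and 0.0146), and its paralogue Rhot1 and the adaptor Trak1 fell in FUN025/+ eyecups (-0.20, adjusted p = 0.0250, and -0.17, adjusted p = 0.0364). The Rhot2 calls were lost with the GC offset (-0.13, adjusted p = 0.281, and -0.20, adjusted p = 0.0943) and the rod covariate (-0.12, adjusted p = 0.340, and -0.19, adjusted p = 0.109). With the muscle covariate the FUN025/+ call was lost (-0.31, adjusted p = 0.0522) and the FUN025/FUN025 call remained. Between the mutant genotypes, 0 genes of any of these 7 lists passed. All these values are from the edgeR fit, share the 4 WT mice and stand beside the background of 13.7% and 14.0% of genes called.

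Over the 7 lists, 18 genes were called in FUN025/+ and 14 in FUN025/FUN025 eyecups, and many of these calls depended on the setting. With the GC offset, 9 of the 18 and 7 of the 14 remained, with the striated muscle markers as a covariate 5 and 5, and with the rod markers as a covariate 12 and 7. Of the 18 genes 0 were called under all 3 of these settings, and of the 14 genes 2 were, Ssbp1 and Armcx3. Called under none of the 3 were Rhot2 and Ulk1 in FUN025/+ eyecups, and Mtfp1, Opa3, Ulk1 and Yme1l1 in FUN025/FUN025 eyecups. Chchd3 and Perm1 remained with the GC offset and the rod covariate in both genotypes and were not called with the muscle covariate (Chchd3 -0.12, adjusted p = 0.327, and -0.21, adjusted p = 0.0587; Perm1 -0.23, adjusted p = 0.327, and -0.29, adjusted p = 0.162). Polg remained with both covariates and was lost with the GC offset (-0.11, adjusted p = 0.0746, and -0.12, adjusted p = 0.0540). Parl remained with the muscle covariate, was lost with the rod covariate in both genotypes (0.10, adjusted p = 0.291, and 0.16, adjusted p = 0.0953) and was lost with the GC offset in FUN025/+ eyecups (0.16, adjusted p = 0.0979). The lower levels of the striated muscle and rod markers given above stand beside each of these lists, and their part in these changes was not tested beyond the covariate fits. The counts also dropped in FUN025/+ eyecups to 11 without WT replicate 3 and 10 without WT replicate 4, and in FUN025/FUN025 eyecups to 9 without WT replicate 2, WT replicate 3 or FUN025/FUN025 replicate 1, and 8 without WT replicate 4.

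**Figure D5:**
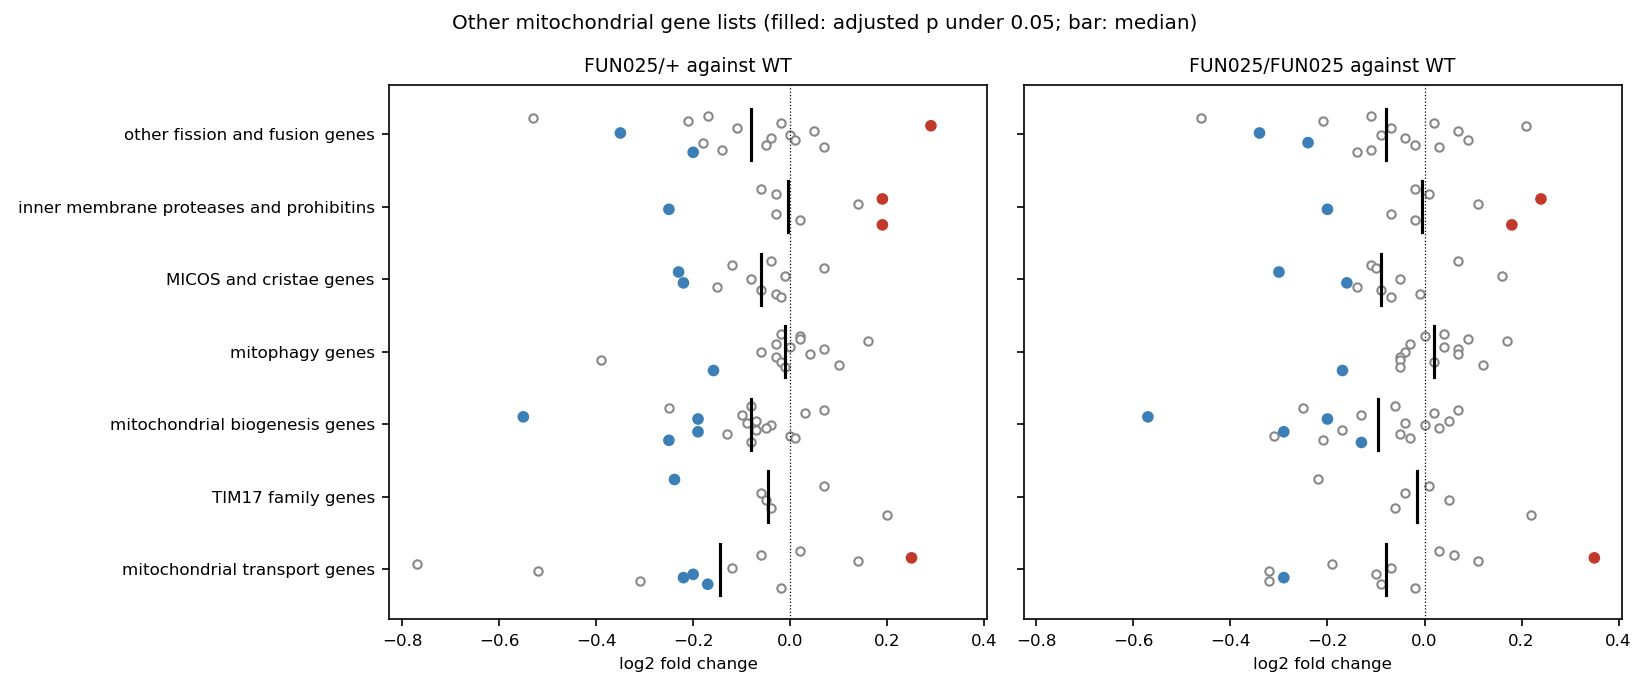
Log2 fold change against WT of every tested gene in 7 lists of mitochondrial genes, 1 point per gene, with filled points at an adjusted p under 0.05 and a vertical bar at each list's median. Medians lie between -0.14 and 0.02, and the filled points are few in each list, with Perm1 lowest at -0.57 and Armcx3 highest at 0.35 in FUN025/FUN025 eyecups.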

How the data were processed

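RNA from posterior eyecups of 15 mice was sequenced by the authors, and the deposited values are unnormalized whole-number read counts for 55421 Ensembl genes per library. Per the labels, the submitters' processing notes name FastQC 0.11.8, Trimmomatic 0.39, HISAT2 2.1.0, SAMtools, featureCounts 2.0.0 and GRCm38; the strand setting is not given in the sources used here. Groups came from sample labels. GENCODE M21 gave names and exon lengths for 55240 genes.

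After removal of the 15% of genes with the lowest variance, as in the study's methods, and edgeR's filterByExpr, 18979 genes remained. All mice entered one edgeR 4.0.16 quasi-likelihood fit with TMM scaling in R 4.3.3, with Benjamini-Hochberg adjustment over all genes tested and a threshold of 0.05. CPM used the scaled totals, RPKM divided CPM by exon length, and a prior count of 2 was added before log2 CPM was correlated. Library totals of 10903183 to 20029919 set the counting precision. Libraries of a genotype are separate mice, and no pair held identical values.

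The 10 genes, the 7 lists and the markers were chosen with earlier results of these data known. Genes named were the members, up to 3 per list with the smallest adjusted p under 0.05 in FUN025/FUN025 against WT and a mean of at least 1 CPM, and the 5 genes most correlated with Tmem135 on each scale; others are said to be named after their values were seen. The fit was tested on simulated data. Alternatives were DESeq2 1.42.0 (test and size factors), other filters, libraries thinned to the smallest total, fits of 2 genotypes, a replicate block, GC content, marker and Xist covariates, leaving out each mouse, and protein-coding genes alone, the last chosen after seeing the data.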

Additional observations from a re-analysis of the deposited data

Results flagged for a closer look

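WT replicate 2 had 28.9 CPM of Mief1, apart from the other 3 WT mice, which lay close together at 26.9 to 27.2 CPM. The difference is small, and the value lies inside the range of the FUN025/+ mice (22.9 to 31.4 CPM). The gap was 0.870 of the whole range of the 4 mice, above Dixon's critical value of 0.829. This was 1 of 30 groups examined (10 genes in 3 genotypes), and chance alone sets apart about 1 in 20 groups.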

How the results depend on the processing

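In the 3 comparisons of genotypes, over 13 other settings, 361 of 387 values of the 10 members kept their direction and their side of the threshold, 13 lost a call, 3 gained one and 10 changed sign, to at most 0.06 in size. These tallies leave out the slope, where the call of Mief2 was lost in 5 of 12 settings and Opa1 gained one in 4, and the midpoint, where Tmem135 changed sign in 4 of 12. The number of members called in FUN025/+ against WT was 1 with the GC offset, 0 with the muscle covariate and 1 with the rod covariate. Under the GC offset both Tmem135 and Mief2 lost their calls, and the gene called was Mff (-0.14, adjusted p = 0.0341, edgeR). In FUN025/FUN025 against WT it was 1 with the GC offset and 1 with the muscle covariate. Between the mutant genotypes it was 1 with DESeq2's test and 1 without filters, and for the slope it was 1 with the replicate block, the GC offset or the muscle covariate. Tmem135 in FUN025/+ against WT was 0.17, 0.27 and 0.22 under the GC offset, the muscle covariate and the rod covariate, each with an adjusted p above 0.05, and between the mutant genotypes it was 0.24 with DESeq2 and 0.24 without filters, where it passed. For these changes the cause was not tested.

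Values near 0 changed sign. Tmem135 against the midpoint was 0.02 with the replicate block and with the muscle covariate, and 0.01 with Xist as a covariate and with protein-coding genes alone. Under the GC offset Dnm1l was at -0.06 and -0.05 against WT, and Mfn2 in FUN025/FUN025 eyecups at 0.02. Fis1 in FUN025/+ eyecups was at 0.06 with the GC offset, 0.06 with the muscle covariate, 0.01 with protein-coding genes alone and 0.00 with only those genotypes, and in FUN025/FUN025 eyecups at -0.03 with the rod covariate. Mief1 in FUN025/+ eyecups was at 0.02 with the replicate block and 0.04 with the rod covariate.

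Genes called over the 7 lists numbered 18 in FUN025/+ and 14 in FUN025/FUN025 eyecups. In FUN025/+ eyecups they were 11 with the GC offset, 6 with the muscle covariate and 11 with only those genotypes. In FUN025/FUN025 eyecups they were 9 with the GC offset and 7 with the muscle covariate. With a mouse left out they ran from 10 to 19 and from 8 to 19.

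With each mouse left out, the members called ran from 0 to 2, 1 to 3 and 0 to 1 in the 3 comparisons in the order above, and from 1 to 3 for the slope. Tmem135 ran from 0.19 to 0.26, 0.44 to 0.50 and 0.20 to 0.28, and from -0.05 to 0.03 against the midpoint. Against WT, Fis1 ran from -0.06 to 0.06 and from -0.03 to 0.10. Between the mutant genotypes, Dnm1l ran from -0.01 to 0.03 and Mief2 from -0.07 to 0.00.

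Replicate numbers are shared between genotypes but belong to different animals. Deviations of same-numbered mice correlated at -0.38 to 0.13, over 0.1 in 1 of 13 pairs. Mice of different numbers were not compared in this way, so a shared litter or order of processing was not tested. With the replicate block, 2 members were called in each comparison with WT, Tmem135 at 0.23 (adjusted p = 0.0142, edgeR) and 0.44 (adjusted p = 2.47e-04), and Opa1 was not called (0.20, adjusted p = 0.0679).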
